A study of Mus musculus with 12 samples.

Results

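A set of 29 genes that mark astrocytes was examined in RNA-seq of mouse cerebral cortex with and without a Cre that acts on the floxed gene of the histone methyltransferase NSD1. The genes are given by a list of names, drawn up with earlier results of these data known, and all 29 have a row in the table of 34193 genes. All 29 had an average of 10 or more normalised reads across 12 libraries, as did 14397 genes in all, which were the genes tested. Mice were 8 weeks old. The 6 conditional knockout (cKO) libraries came from mice that carried Nsd1 flx/flx with Nestin-cre +/-, and the 6 control libraries from mice with the same loxP-flanked alleles with Nestin-cre -/-, so both groups have the floxed gene and only the cKO has Cre. The nestin promoter is active in neural progenitors, from which cortical neurons, astrocytes and oligodendrocytes all descend, so astrocytes are among the cells that Cre can reach. Control and cKO libraries are numbered 1 to 6 as in the deposited table. The labels speak of biological replicates but tie none to an animal. The p-values therefore rest on the spread between these libraries, which may be technical.

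Astrocytes are the star-shaped glia that clear glutamate and potassium from around synapses, contact blood vessels, pass metabolites to neurons and secrete factors that shape synapses. When the brain is injured or inflamed they become reactive, which is classically seen as more of the intermediate filament proteins GFAP and vimentin. The 27 members other than Gfap and Vim are called homeostatic here. They include genes for the resting duties, such as glutamate transporters, connexins and metabolic enzymes, but also transcription factors and secreted proteins. Gfap and Vim make up the reactive pair. Several members are not exclusive to astrocytes: Vim and Id3 are also made by vessel cells, Apoe by microglia, and S100b and Glul by oligodendrocytes. In bulk cortex, fewer astrocytes and less RNA per astrocyte cannot be told apart.

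Values are counts of reads scaled between libraries by the authors, called normalised reads below. Control libraries held 10510053 to 21096808 reads assigned to genes, and cKO libraries 14583163 to 26975576. Nsd1, the targeted gene, ran from 3214 over a median of 4437 to 5269 normalised reads in the controls and from 2853 over 3247 to 3617 in the cKO (log2 fold change -0.36, SE 0.12, limma adjusted p = 0.383). A value over the whole gene does not show whether the floxed part was deleted. Y-linked genes were read in libraries 1 to 3 of each genotype, while libraries 4 to 6 had none apart from a summed value of 3.09 in cKO library 6. This split was a term in the model. Control libraries 4 and 5 stood apart by mitochondrial ribosomal RNA, at 14.2% and 11.5% of reads against 1.46% to 6.00% in the other 10. cKO library 4 stood apart by base composition: its log2 values fell by 0.27 for each 10 percentage points of transcript GC, against slopes of -0.09 to 0.10 in the other 11.

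NSD1 deposits a methyl mark on histone H3 that helps recruit DNA methyltransferases, and CG dinucleotides are among the sites of DNA methylation. The promoters of 3 members are shown with each CG in capitals, although neither that mark nor methylation was measured in these libraries. They are Gfap, the classical reactive marker, Gja1, the member with the smallest p between genotypes, and Id3, the member with the largest difference. Each is the 250 bases before the RefSeq start (build GRCm38.p6, 5′ to 3′ on the gene's strand). Gfap lies at chr11:102897201-102897450 (minus strand), Gja1 at chr10:56377050-56377299 (plus strand) and Id3 at chr4:136143572-136143821 (plus strand).
Gfap: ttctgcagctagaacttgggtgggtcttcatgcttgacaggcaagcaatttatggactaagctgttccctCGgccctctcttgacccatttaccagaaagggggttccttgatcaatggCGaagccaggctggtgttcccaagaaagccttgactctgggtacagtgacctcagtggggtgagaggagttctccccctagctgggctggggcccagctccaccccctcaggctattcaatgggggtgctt
Gja1: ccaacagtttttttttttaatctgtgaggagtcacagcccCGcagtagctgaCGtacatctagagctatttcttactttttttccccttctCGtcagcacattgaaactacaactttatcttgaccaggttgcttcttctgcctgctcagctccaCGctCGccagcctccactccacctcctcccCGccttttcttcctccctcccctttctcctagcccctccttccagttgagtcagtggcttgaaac
Id3: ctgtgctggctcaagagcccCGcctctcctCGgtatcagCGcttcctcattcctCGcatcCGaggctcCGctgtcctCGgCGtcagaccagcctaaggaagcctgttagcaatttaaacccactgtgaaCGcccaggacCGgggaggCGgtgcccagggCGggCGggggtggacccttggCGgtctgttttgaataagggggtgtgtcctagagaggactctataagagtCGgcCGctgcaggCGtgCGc
The Gfap window holds 2 CG dinucleotides, and 5.32% of the 10060 tested genes with a window have that many or fewer. Gja1 has 6 (17.6% of tested genes have that many or fewer) and Id3 has 18 (61.5%). RefSeq windows were matched for 24 of the 29 members, and Atp1b2, Chrdl1, Clu, Sox9 and Sparcl1 were not matched. The CG dinucleotide, which reads the same on both strands, was present in 23 of the 24 windows and in 99.0% of windows of tested genes. The median was 7.5 per window in the members and 16.0 in tested genes, and 10 of 24 members had 5 or fewer, against 14.4% of tested genes. Agt has none and Id4 has 35. The 10 members with at most 5 CG had a median log2 fold change between genotypes of -0.14, and the other 14 a median of -0.09. A link between promoter CG and fold change was not tested.

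The levels of the members spanned a wide range. Per kilobase of the longest annotated transcript, Glul (glutamine synthetase, which turns glutamate into glutamine) had the highest mean level over the 12 libraries, at 14987 normalised reads per kb. Apoe followed at 12983 per kb, Sparcl1 at 10249 per kb and Slc1a2 at 9114 per kb. Agt and Chrdl1 were lowest, at 84.2 and 86.0 per kb. Gfap stood at 1137 per kb and Aldh1l1, a folate enzyme used as a general astrocyte marker, at 356 per kb. Both defining markers were thus present in every library. Summed over the 29 members, the share of all reads was 1.37% to 1.74% in the controls and 1.46% to 1.88% in the cKO, so the groups overlapped.

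None of the 29 astrocyte markers passed the test between cKO and control cortex (limma, adjusted p under 0.05 over all tested genes), and neither edgeR nor DESeq2 on the recovered reads called any. Over all tested genes, 120 were called, or 0.834%, of which 110 were higher and 10 lower in the cKO. At an unadjusted limma p under 0.05, 5 of 29 members were found, 1 higher (Gja1) and 4 lower (Sox9, Id3, Cldn10 and Apoe), beside 9.73% of all tested genes. That count of 5 became 9 when cKO library 3 was left out. It became 3 on leaving out control 3, control 4, cKO 1 or cKO 5, and 2 on leaving out control 5, control 6, cKO 2 or cKO 4. The share of all tested genes at that threshold was not computed with a library left out. Whether these changes are particular to the members is therefore not known. The median log2 fold change of the members was -0.11, with 22 of 29 below 0, beside a median of -0.00069 and 50.1% below 0 over all tested genes. It was -0.06 without cKO library 4, and -0.05 without both control libraries 4 and 5, with 18 of 29 below 0. No member had cKO libraries entirely above or below the controls, a separation found for 1.01% of tested genes. For 20 of 29 members the 95% interval of the log2 fold change lay within 0.5 of 0 in both directions. The authors' deposited table likewise gives no member an adjusted p under 0.05, the smallest being 0.203 for Gja1.

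**Figure D1:**
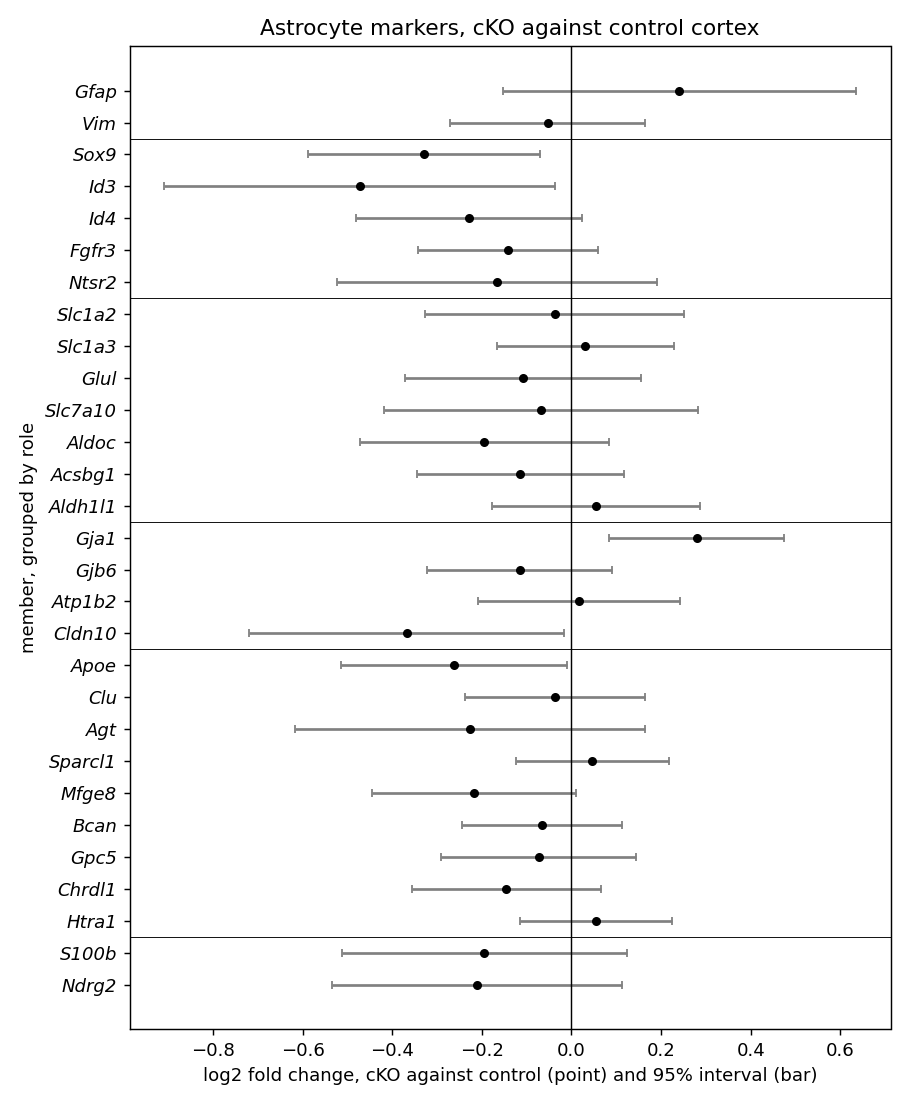
Log2 fold change of each of the 29 astrocyte markers, cKO against control cortex, with its 95% interval from limma (6 libraries a group). Points run from -0.47 (Id3) to 0.28 (Gja1), and no member passed the adjusted test.

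The reactive pair comes first, since more Gfap and Vim would mark reactive astrocytes. Gfap, the main intermediate filament of astrocytes, ran from 1732 over a median of 2616 to 4231 normalised reads in the controls and from 2438 over 3275 to 4060 in the cKO. The cKO range lay wholly inside the control range. The log2 fold change was 0.24 (SE 0.19, 95% interval -0.15 to 0.63, limma adjusted p = 0.620), so that a rise of up to 1.55-fold is within the interval. Single libraries moved it: it was 0.10 without control library 2, 0.39 without control library 4 and 0.43 without control libraries 4 and 5. Vim, which encodes vimentin, ran from 504 over 631 to 690 normalised reads in the controls and from 507 over 571 to 696 in the cKO. These ranges were nearly the same, and the log2 fold change was -0.05 (SE 0.10, 95% interval -0.27 to 0.16, limma adjusted p = 0.848). Gfap varied more between control libraries than any other member, with a coefficient of variation of 31.8% against 12.7% for Vim.

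**Figure D2:**
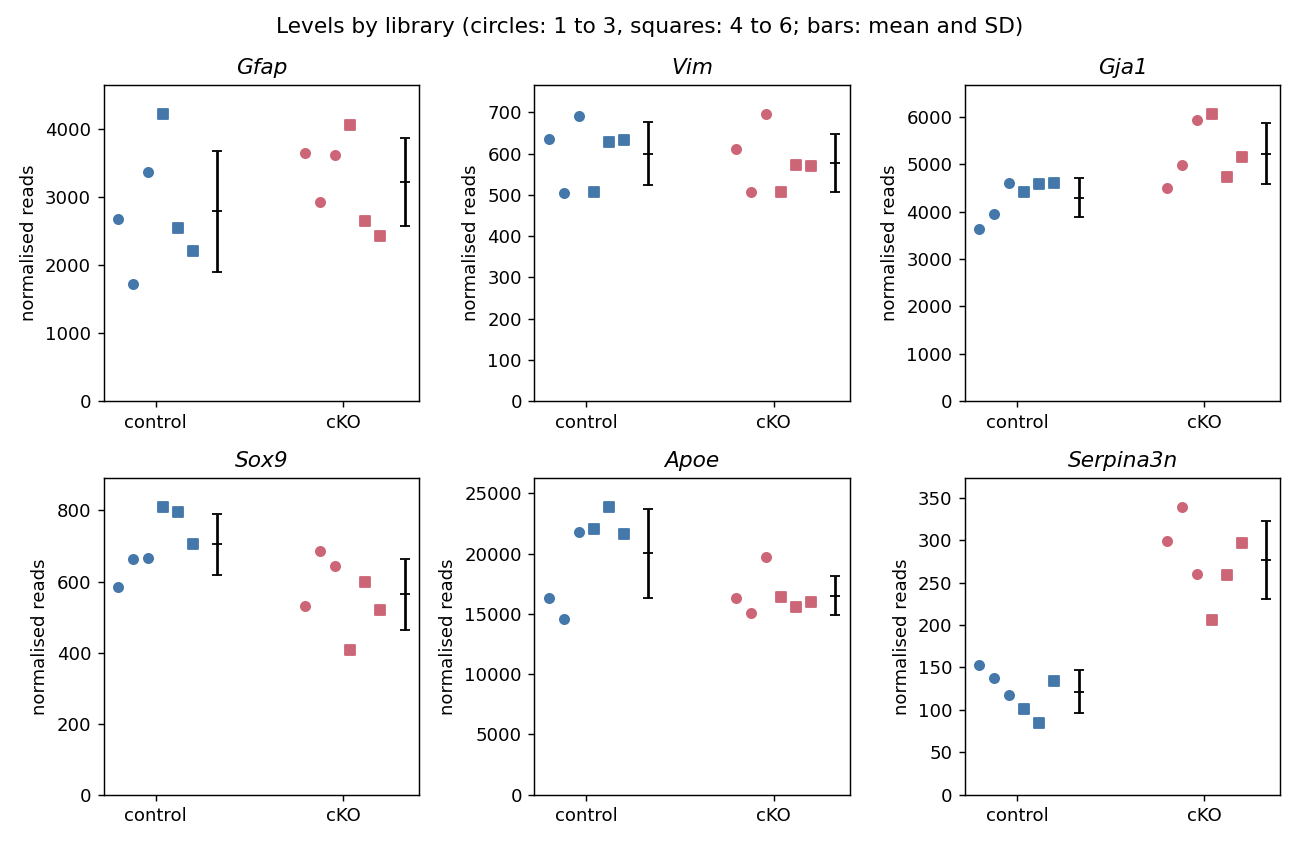
Normalised reads in each library for 5 members (Gfap, Vim, Gja1, Sox9, Apoe) and for Serpina3n, a reactive gene outside the members; circles are libraries 1 to 3, squares libraries 4 to 6, and bars give mean and SD of 6 libraries. The groups overlap for all 5 members, while for Serpina3n the cKO libraries start at 206 and the controls end at 153.

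Other genes linked to reactive astrocytes were then read from lists that, like the members, were chosen with earlier results known, so their calls are no independent evidence. Of 11 pan-reactive genes, 7 were tested and 1 rose: Serpina3n, a secreted serine protease inhibitor that astrocytes make after many insults. It ran from 83.9 over a median of 125 to 153 normalised reads in the controls and from 206 over 278 to 339 in the cKO. Every cKO library lay above every control (log2 fold change 1.196, SE 0.13, limma adjusted p = 9.3e-05). A separation in either direction was found for 1.01% of all tested genes, and limma called 0.834%, 91.7% of them higher in the cKO. Leaving out any single library kept the limma adjusted p of Serpina3n at 0.0006 or lower. Serpina3n belongs to a cluster of similar genes, so reads may be divided among them. The other 6 tested genes had limma adjusted p-values above the threshold. Examples chosen after their values were seen are Cd44, a hyaluronan receptor (log2 fold change 0.20, SE 0.15), Osmr, the oncostatin M receptor (0.03, SE 0.23), and Cp, ceruloplasmin (-0.14, SE 0.09). Aspg, an asparaginase, ran from 22.2 to 30.1 normalised reads in the controls and from 29.9 to 44.7 in the cKO (log2 fold change 0.48, SE 0.15, limma adjusted p = 0.341), and was likewise chosen after its values were seen. Lcn2, Steap4, Timp1 and Cxcl10 were below the filter, with Lcn2 at no more than 6.88 normalised reads in any library, where 3 reads correspond to 1.98 to 5.64.

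Genes reported to mark astrocytes exposed to inflammation (often named A1) gave no call among 12 tested, and those reported after ischaemia (A2) none among 8. Over all tested genes limma called 0.834%. Counts at an unadjusted limma p under 0.05 were 1 and 0, beside 9.73% of all tested genes, and edgeR also called 0 in each. The member of the A1 list with the smallest p was Amigo2, an adhesion molecule. Its mean was 109 ± 16.9 normalised reads for controls against 146 ± 17.3 for cKO (SD over 6 libraries, limma adjusted p = 0.225). In the A2 list it was Cd109, at 19.4 ± 9.03 against 27.5 ± 6.96 (SD over 6 libraries, limma adjusted p = 0.523). The median log2 fold changes of the tested members were 0.20 for the pan-reactive, -0.06 for the A1 and -0.08 for the A2 list. Without control library 3 the first was 0.08 and the A1 median changed sign to 0.03, and without control library 5 the A2 median was -0.02. Without a filter on low values the pan-reactive median was 0.03.

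All 5 transcription factors and receptors among the members had log2 fold changes below 0, from -0.47 to -0.14 with a median of -0.23. Of the 5, 2 had an unadjusted limma p under 0.05, beside 9.73% of all tested genes. Below 0 also lay 22 of all 29 members and all 36 cytosolic ribosomal protein genes tested. Sox9, the transcription factor that specifies glia and stays on in adult astrocytes, ran from 586 over a median of 686 to 810 normalised reads in the controls and from 408 over 565 to 686 in the cKO. The groups overlapped, with 3 of 6 cKO libraries below all controls. The log2 fold change was -0.33 (SE 0.12, limma adjusted p = 0.448). Id3, an inhibitor of DNA binding that acts downstream of BMP signalling, ran from 348 over 496 to 703 in the controls and from 189 over 374 to 468 in the cKO (log2 fold change -0.47, SE 0.21, limma adjusted p = 0.482). Its lowest cKO value belonged to library 4 and its highest control value to library 4 as well. Its relative Id4 differed by -0.23 on a log2 scale (SE 0.12, limma adjusted p = 0.525). Fgfr3, a fibroblast growth factor receptor of astrocytes, and Ntsr2, a neurotensin receptor, had log2 fold changes of -0.14 (SE 0.09) and -0.17 (SE 0.17). Without cKO library 4 the value for Ntsr2 was 0.03.

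For all 7 genes of glutamate uptake and metabolism the 95% interval of the log2 fold change lay within 0.5 of 0. Slc1a2, the glutamate transporter GLT-1, which clears most synaptic glutamate in cortex, ran from 84314 over a median of 103249 to 141334 normalised reads in the controls and from 88608 over 103231 to 117782 in the cKO. The medians were almost equal and the log2 fold change was -0.04 (SE 0.14, 95% interval -0.33 to 0.25, limma adjusted p = 0.927). It was 0.33 after quantile normalisation, also without a call (limma adjusted p = 0.519). Slc1a3, the transporter GLAST, ran from 8565 to 11638 in the controls and from 9572 to 11930 in the cKO, with a log2 fold change of 0.03 (SE 0.09, 95% interval -0.17 to 0.23). Glul averaged 43470 ± 6977 normalised reads across controls and 40215 ± 5886 across cKO libraries (SD, n = 6 each), and Slc7a10, the transporter Asc-1 for alanine, serine and cysteine, averaged 380 ± 51.9 and 373 ± 97.4. Aldoc, the brain form of aldolase, had a log2 fold change of -0.19 (SE 0.13), Acsbg1, an acyl-CoA synthetase, of -0.11 (SE 0.11) and Aldh1l1 of 0.06 (SE 0.11). Limma adjusted p-values in this group were at least 0.580.

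Among the 4 membrane proteins was the member with the smallest p, Gja1. It encodes connexin 43, the main gap junction protein of astrocytes. It ran from 3636 over a median of 4498 to 4596 normalised reads in the controls and from 4494 over 5063 to 6063 in the cKO, and 5 of 6 cKO libraries lay above all controls. The log2 fold change was 0.28 (SE 0.09, 95% interval 0.08 to 0.47, limma adjusted p = 0.368), and it stayed between 0.22 and 0.32 with any single library left out. Gjb6, which encodes connexin 30, the other astrocyte connexin, had a log2 fold change of -0.12 (SE 0.10, 95% interval -0.32 to 0.09). The difference between these connexins was not tested. Atp1b2, a beta subunit of the sodium pump, stood at 6573 ± 701 and 6673 ± 879 normalised reads (SD, n = 6 each). Cldn10, a claudin, ran from 303 over 465 to 592 in the controls and from 251 over 342 to 477 in the cKO (log2 fold change -0.37, SE 0.17, limma adjusted p = 0.4997).

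Secreted and matrix genes numbered 9, and 7 of their intervals lay within 0.5 of 0 on the log2 scale. Apoe, the lipid carrier that astrocytes release, ran from 14557 over a median of 21723 to 23878 normalised reads in the controls and from 15101 over 16159 to 19730 in the cKO. Control libraries 1 and 2 were as low as the cKO, whereas the other 4 controls lay above every cKO library (log2 fold change -0.26, SE 0.12, limma adjusted p = 0.4997). Clu, which encodes the chaperone clusterin, had a log2 fold change of -0.04 (SE 0.09). Sparcl1, which encodes the synapse-promoting protein hevin, varied least among the controls, at 27809 ± 1208 normalised reads for controls and 28743 ± 1769 for cKO libraries (SD, n = 6 each, 95% interval of the log2 fold change -0.12 to 0.22). Mfge8, a bridge protein for phagocytosis, differed by -0.22 on a log2 scale (SE 0.11, limma adjusted p = 0.520). Bcan, which encodes the perineuronal matrix protein brevican, had -0.07 (SE 0.08), Gpc5, a glypican, -0.07 (SE 0.10), Chrdl1, a secreted BMP antagonist, -0.15 (SE 0.10), Htra1, a secreted serine protease, 0.05 (SE 0.08), and Agt, angiotensinogen, -0.23 (SE 0.18). S100b, a calcium-binding protein, and Ndrg2 had -0.19 (SE 0.15) and -0.21 (SE 0.15).

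The members varied together from library to library, as the heat map by library shows. In control libraries 4, 5 and 6, 26, 25 and 25 of the 29 members lay above their own mean of 12 libraries, and the median deviations were 0.22, 0.27 and 0.16 on the log2 scale. In control libraries 1 and 2 only 5 and 4 members lay above it, with medians of -0.13 and -0.21. The cKO ranged as widely: 26 members lay above their mean in library 3 (median 0.19) and 4 in library 5 (median -0.12). Of the 29 members, 22 reached their highest level in control library 4, 5 or 6, as 8, 8 and 6 genes, and 12 had their lowest level in cKO library 4. The median deviation thus ran from -0.21 to 0.27 in the controls and from -0.20 to 0.19 in the cKO.

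**Figure D3:**
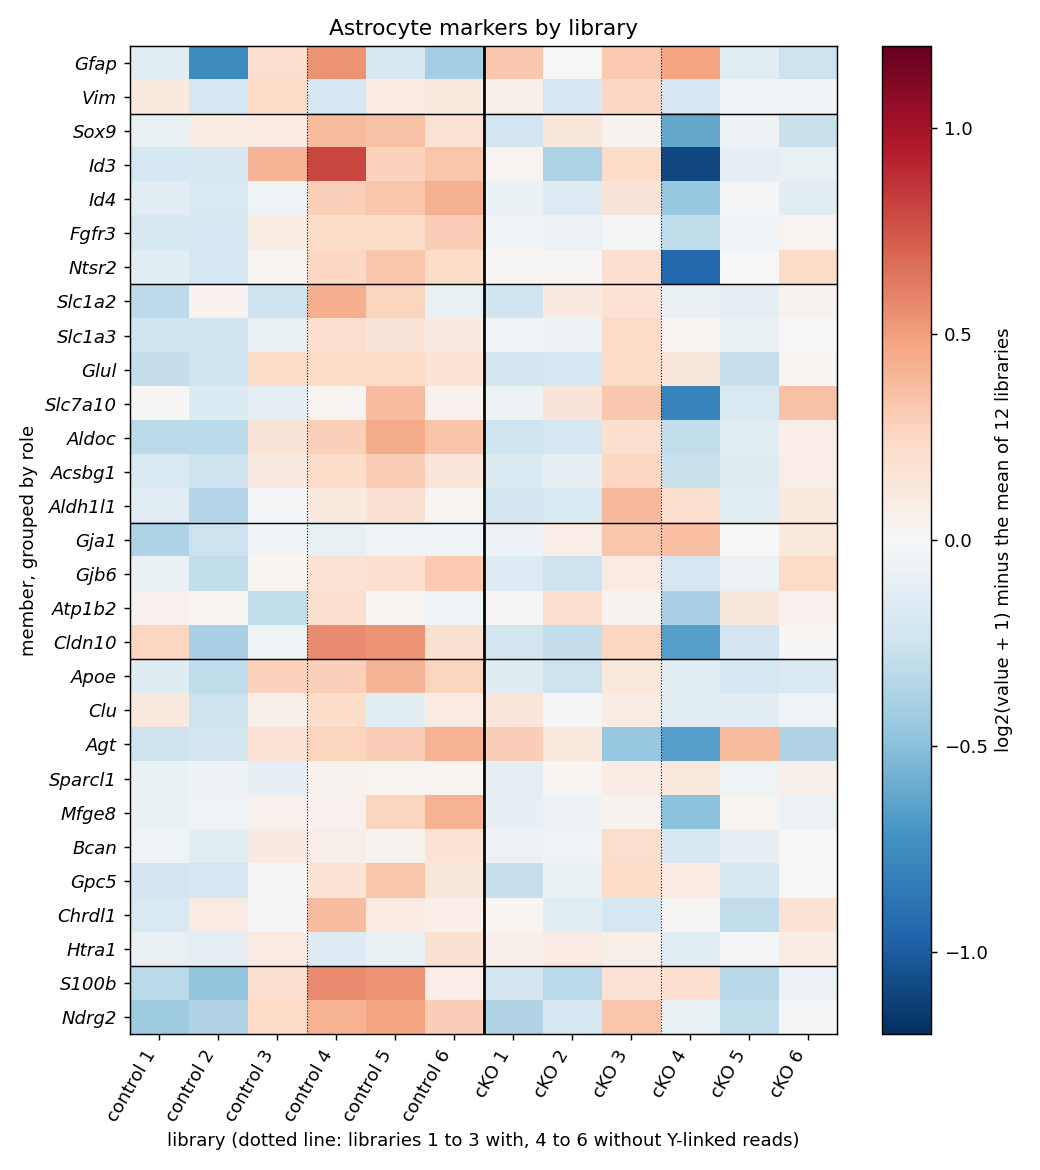
Deviation of each member from its own mean over the 12 libraries, on the log2(value + 1) scale, with libraries in columns and members in rows grouped by role (lines). Control libraries 4 to 6 are mostly red, with 26, 25 and 25 members above their mean, and cKO library 4 holds the lowest level of 12 members.

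cKO library 4 was uneven across members. Ntsr2 stood at 683 normalised reads there against at least 1305 in the other cKO libraries, and Id3 at 189, while Gfap (4060) and Gja1 (6063) had their highest cKO value in the same library. Of the 16 members with a transcript GC of at least 50%, 14 lay below their mean in that library (median deviation -0.28), and of the 13 members under 50% it was 6 (median 0.01). Across the 29 members, deviation in that library and transcript GC had a Pearson r of -0.30 and a Spearman rho of -0.39, a description over genes of the same library. With the linear trend of each library with transcript GC removed, a setting chosen after the data had been seen, the members' median log2 fold change was -0.11 and again none was called by limma.

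Other measures moved with the same libraries. Of 36 cytosolic ribosomal protein genes tested, none was called and 24 had an unadjusted limma p under 0.05, beside 9.73% of all tested genes. These 36 genes had mean log2 deviations of 0.74 and 0.81 in control libraries 4 and 5, and -0.46 to 0.27 in the other 10. Their median log2 fold change was -0.38, and -0.12 without both of those libraries. Neuronal markers (15 tested, none called) were lower in these libraries, at -0.22 and -0.19 in control libraries 4 and 5 and -0.09 to 0.15 in the other 10, with summed levels of 239949 to 257688 normalised reads in the controls and 236581 to 254111 in the cKO and no marker at 0. The part of these library differences in the members' values was not tested.

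**Figure D4:**
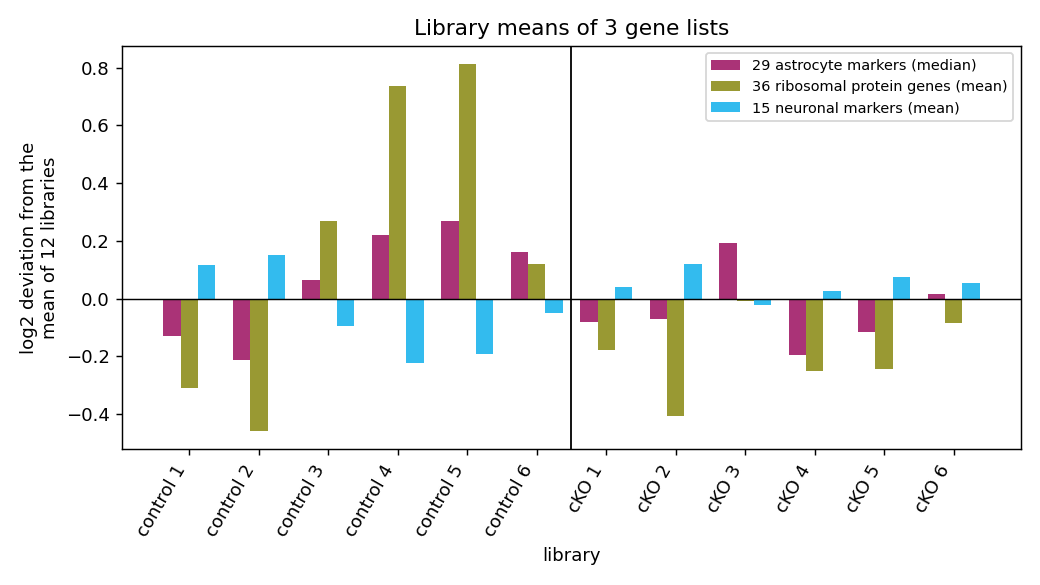
Deviation of 3 gene lists from the mean of the 12 libraries, on the log2 scale: the median of 29 astrocyte markers, the mean of 36 ribosomal protein genes and the mean of 15 neuronal markers. In control libraries 4 and 5 the astrocyte and ribosomal bars are above 0 (0.22 and 0.74, 0.27 and 0.81) and the neuronal bars below 0.

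The genotype difference was next taken apart by set, to ask whether libraries with and without Y-linked reads gave the same answer. In libraries 1 to 3 the members' log2 fold changes had their median at 0.09, and 22 of 29 lay above 0. In libraries 4 to 6 the median was -0.26, with 26 of 29 below 0. The difference of the effects (set with Y-linked reads minus set without) was above 0 for 29 of 29 members, with a median of 0.41, beside 51.6% above 0 and a median of 0.01 over all tested genes. As the members share their libraries, these 29 signs are not independent. The difference was not particular to the members. It was above 0 for 36 of 36 cytosolic ribosomal protein genes (median 0.69). It was also above 0 for 30 of 30 other astrocyte markers (0.42) and 13 of 14 microglial markers (0.23). Of 15 neuronal markers 3 were above 0 (median -0.31), and of 12 endothelial markers 6 (0.02). No member was called for this difference by limma, edgeR or DESeq2 (smallest limma adjusted p = 0.562), and limma called 0% of tested genes. At an unadjusted limma p under 0.05 it was 12 of 29 members, beside 8.77% of tested genes and 23 of the 36 ribosomal protein genes. Those 12 included all 5 transcription factors and receptors.

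**Figure D5:**
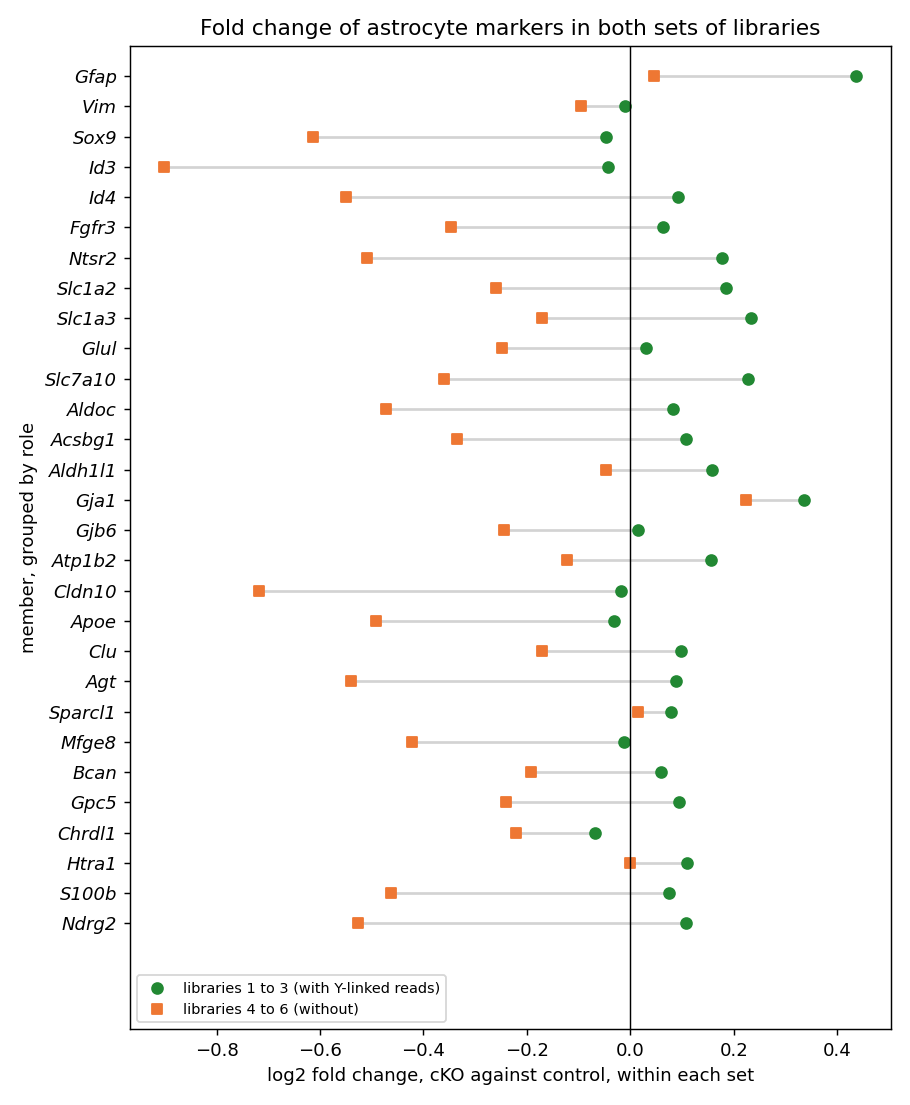
Log2 fold change of each member within libraries 1 to 3 (circles, with Y-linked reads) and within libraries 4 to 6 (squares, without), 3 libraries a group. Circles lie to the right of squares for 29 of 29 members, with medians of 0.09 and -0.26; no single difference passed the adjusted test.

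Id4 had the smallest p for the difference between sets. Its log2 fold change was 0.09 (SE 0.13) in libraries 1 to 3 and -0.55 (SE 0.13) in libraries 4 to 6, a difference of 0.64 (95% interval 0.26 to 1.02, limma adjusted p = 0.562). Id3 showed the widest gap, at -0.04 and -0.90, and Cldn10 followed at -0.02 and -0.72. Slc1a3 had 0.23 and -0.17, and Ndrg2 0.11 and -0.53. Gja1 lay above 0 in both sets, at 0.34 and 0.22. Gfap had 0.44 (SE 0.26) and 0.05 (SE 0.26). Within neither set was a member called by limma, where 0.25% of tested genes were called in the set with Y-linked reads and 0.493% in the set without. Without control libraries 4 and 5, the median difference was 0.34 and 29 of 29 stayed above 0. That fit leaves control library 6 alone in its set and assumes that it varies like the others. The count of members at an unadjusted limma p under 0.05 was 12 with all libraries. It was 4 on leaving out control 1, control 2 or cKO 3 alone, 6 without control 4 and 5 without control 5. Without cKO 4 it was 8, with other single libraries between 10 and 14. The share of all tested genes at that threshold moved as well, from 4.18% to 18.4% with 1 library left out.

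Further astrocyte genes outside the 29 were taken from lists of transcription factors, transporters, lipid genes, synapse and matrix factors and other markers. Together with the reactive lists, 124 such genes were tested, and 4 rose while none fell (limma): Serpina3n, Aqp4, Thbs2 and Ednrb. Over all tested genes, limma called 0.834%, and 91.7% of those calls were higher in the cKO. Control and cKO libraries did not overlap in 1.01% of all tested genes. The median log2 fold change of the 124 was -0.07. Thbs2, a thrombospondin that promotes synapse formation, ran from 134 over a median of 178 to 215 normalised reads in the controls and from 254 over 272 to 299 in the cKO, without overlap (log2 fold change 0.63, SE 0.11, limma adjusted p = 0.00472). Aqp4, the water channel of astrocyte endfeet, ran from 1818 over 2040 to 2678 in the controls and from 2673 over 3042 to 3500 in the cKO, with 5 of 6 cKO libraries above all controls (log2 fold change 0.53, SE 0.10, limma adjusted p = 0.00973). Ednrb, the endothelin receptor B of astrocytes and vessels, ran from 694 over 799 to 960 in the controls and from 968 over 1045 to 1090 in the cKO, with a narrow gap between the groups (log2 fold change 0.37, SE 0.08, limma adjusted p = 0.0322). The call of Ednrb ended without any single library other than control 4 and cKO 4 (limma adjusted p up to 0.124), whereas those of Thbs2 and Aqp4 held (up to 0.0202 and 0.0370). Both Thbs2 and Ednrb are also made by vascular and meningeal cells. Mural and meningeal markers (13 tested, none called) had summed levels of 3890 to 5295 normalised reads in the controls and 4381 to 5218 in the cKO. Of these 13, 1 had an unadjusted limma p under 0.05, beside 9.73% of all tested genes. Endothelial markers (12 tested, none called) had 5958 to 7186 and 6287 to 7047, and no marker of either list was at 0. The part of these cells in the result was not tested.

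Astrocyte transcription factors outside the members gave no call among 18 tested (limma and edgeR). Of these, 4 had an unadjusted limma p under 0.05, all lower, beside 9.73% of all tested genes. The median log2 fold change of the 18 was -0.17. That median was -0.09 without cKO library 4, -0.09 without control libraries 4 and 5, and -0.05 without these 3 libraries. Hes5, a Notch target that keeps glial progenitors undifferentiated, had the smallest p: it ran from 232 over 310 to 396 normalised reads in the controls and from 146 over 223 to 272 in the cKO (log2 fold change -0.53, SE 0.15, limma adjusted p = 0.226). Hes5 was called within libraries 4 to 6 (log2 fold change -0.89, limma adjusted p = 0.0449), where 0.493% of tested genes were called. It was not called within libraries 1 to 3 (-0.18), where 0.25% were, and the difference was not called (limma adjusted p = 0.562). The lowest cKO value of Hes5 was in cKO library 4 and its highest control value in control library 4. Id1, another inhibitor of DNA binding beside the members Id3 and Id4, named after its values were seen, differed by -0.43 on a log2 scale (SE 0.14, limma adjusted p = 0.356). Of 17 lipid and cholesterol genes tested, none was called, with 2 at an unadjusted limma p under 0.05 and a median of 0.01. Srebf1, which encodes a regulator of fatty acid synthesis, had the smallest p there (log2 fold change -0.29, SE 0.12, limma adjusted p = 0.476). The 30 other markers had a median of -0.13, and Ednrb was their single call. Their median was -0.07 without cKO library 4, -0.02 without control libraries 4 and 5, and 0.01 without these 3 libraries.

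Markers of the remaining cell types gave no call by limma or edgeR. At most 1 marker in each list had an unadjusted limma p under 0.05, beside 9.73% of all tested genes. Medians were 0.10 for neurons, -0.01 for oligodendrocytes, -0.04 for their precursors, -0.02 for microglia, -0.01 for endothelial cells, -0.02 for mural and meningeal cells, -0.06 for choroid plexus and ependyma, and 0.05 for radial glia and progenitors. The neuronal median was -0.0033 without control libraries 4 and 5. The members with the smallest p in each, by limma, were Nefm (log2 fold change 0.39), Aspa (-0.33), Gpr17 (0.29), Fcrls (0.20), Egfl7 (-0.31), Igf2 (0.37), Enpp2 (0.20) and Hopx (0.39), with adjusted p-values from 0.296 to 0.524. In the ribosomal list it was Rps6 (-0.42, limma adjusted p = 0.422).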

How the data were processed

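Total RNA (250 ng) from cerebral cortex was depleted of ribosomal RNA and made into directional libraries, per the labels' protocols. Build mm9 and the tools STAR, Bowtie, bedtools and Trim Galore are listed, without versions or roles, per the submitters' processing notes. Counting and its use of strand are not given in the sources used here. Per the file headers, the deposited signal values are counts normalised by the authors with DESeq2, and the table also holds the authors' deposited log2 fold change and standard error, the Wald score, the p-value and the adjusted p-value. Every value above 0 was a whole multiple of a step per library within 0.01 reads (100% of values), which gave the reads back.

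Columns were assigned to genotypes and not to single samples, because Y-linked reads (summed value above 100) go against the sex given for samples of the same number. Genotypes were compared by limma, its variance trend enabled, on log2(value + 1). The test was two-sided and covered genes averaging 10 or more, with genotype and the Y-linked split as terms and Benjamini-Hochberg adjustment over 14397 genes at 0.05. The added 1 shrinks the fold change of weakly expressed genes. For the difference between sets, genotype and set were combined into 4 groups and contrasted. All 29 members are described. Of the other lists up to 3 called genes are named, or the gene with the smallest p. Cd44, Osmr, Cp, Aspg and Id1 are exceptions, named after their values were seen. The members and lists were chosen with earlier results of these data known. Transcript length and GC are those of the longest GENCODE M21 transcript (98.2% of tested genes matched). Promoters come from RefSeq on GRCm38.p6, a build other than that of the files. No 2 libraries of a genotype agreed within sampling noise: over 30 pairs, chi-square divided by its degrees of freedom was 7.03 to 169. Tests were checked on simulated data in which genes varied independently. That check does not cover the shared library differences seen here. Versions were R 4.3.3, limma 3.58.1, edgeR 4.0.16 and DESeq2 1.42.0.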

Additional observations from a re-analysis of the deposited data

Results flagged for a closer look

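Of 58 groups of 6 libraries (29 members in each genotype), 7 had a highest or lowest library set apart from the nearest other by more than 0.625 of the whole range, and chance marks about 1 in 20 such groups. The 58 groups share their libraries and are not independent, so the 7 cannot be set against that rate. Of the 7, 4 were low values in cKO library 4, the library with the steepest trend with transcript GC. There Fgfr3 stood at 1770 normalised reads, Ntsr2 at 683, Atp1b2 at 5013 and Mfge8 at 2101, with the next cKO library at 2074, 1305, 6638 and 2766. High values in cKO library 3 were Slc1a3 at 11930 (next 10316) and Apoe at 19730 (next 16391). Slc7a10 was high in control library 5, at 477 (next 383).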

How the results depend on the processing

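None of the 29 members was called under any of 27 alternatives, and the members' median log2 fold change stayed below 0, from -0.16 to -0.03. Direction was the same in 754 of 783 member values and reversed in 29, over 11 members. After quantile normalisation Slc1a2 was 0.33, Glul 0.11 and Atp1b2 -0.0109, and with array weights Slc1a2 was 0.00982 and Slc7a10 0.0585. Without control libraries 4 and 5, Slc1a2 was 0.13, Slc7a10 0.0636, Gpc5 0.00733 and S100b 0.00092. Without those and cKO library 4 (chosen after seeing the data), Ntsr2 was 0.0878, Slc1a2 0.14, Slc7a10 0.17, Acsbg1 0.0187 and Clu 0.00867. With the transcript length trend removed Clu was 0.0227. Leaving out 1 library at a time gave -0.0346 to 0.0670 for Slc1a3, -0.0470 to 0.11 for Atp1b2, -0.0976 to 0.0376 for Slc1a2, -0.10 to 0.0126 for Clu, -0.16 to 0.0959 for Slc7a10, -0.0433 to 0.11 for Aldh1l1 and -0.23 to 0.0271 for Ntsr2. The causes were not tested. Over all genes 120 of 14397 tested were called, but 58 of 12299 with a mean of at least 50. For the difference between sets, over all genes, DESeq2 called 3 and limma without control library 6 called 7, no member among them. Same-numbered libraries, centred within genotype, correlated at 0.34, 0.50, 0.35, 0.09, 0.09 and 0.26. Libraries of different numbers were not correlated for comparison, so these values cannot show whether the numbers are pairs. The main model did not take them as pairs. With the number as a replicate block, 118 genes were called, no member among them, and Ednrb lost its call (limma adjusted p = 0.0880). In that fit 7 members had an unadjusted limma p under 0.05, and the share of all tested genes was not computed. Ednrb also lost its call with a mean of at least 50 (limma adjusted p = 0.0504), without the Y-linked term (0.0529) and with the GC trend removed (0.0511). Libraries held 10510053 to 26975576 reads. Counting error was not computed for each member, and it weighs most on the weakest, such as Agt at 97.3 normalised reads in cKO library 4. Within each genotype, the spread between libraries over all tested genes exceeded sampling noise.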
